A study of Mus musculus with 6 samples.

Results

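The hippocampus was compared with the prefrontal cortex in mice with and without ischemic heart failure. The comparison used 4 of the 6 RNA sequencing libraries of the series, 2 of hippocampus and 2 of prefrontal cortex, and 12077 of 35485 annotated features, those with 100 or more uniquely mapped gene reads in at least 2 of the 4 libraries. All mice were C57BL/6 by the labels and male C57BL/6N by the study's methods. In the CHF group a myocardial infarction had been set by permanent ligation of a coronary artery, which led to ischemic chronic heart failure (CHF), and in the sham group the chest was opened without ligation. Tissue was taken 8 weeks after the operation. Each CHF library held pooled RNA of 3 mice and each sham library pooled RNA of 6 mice, so every region was represented by 1 CHF pool and 1 sham pool, which are not replicates of a single condition. The labels do not state whether the pools of both regions came from the same animals. The names of the deposited tables give 1 lane for both hippocampal libraries and another for both cortical libraries, while the methods describe pooled libraries run over lanes. If the names hold, region and lane cannot be told apart.

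The hippocampus is an archicortical structure in which dentate gyrus granule cells project to CA3 pyramidal neurons, which in turn project to CA1, with the small CA2 field in between. The prefrontal cortex is layered neocortex, whose upper layers connect cortical areas while layers 5 and 6 project to the striatum, brainstem and thalamus. Granule cells and the pyramidal neurons of the CA fields and of the neocortical layers are distinguished by transcription factors, adhesion molecules and receptors, and these regional identity genes are described here. The operation itself was not the subject of the comparison. It entered the model as a block, so that the hippocampus was set against the prefrontal cortex within CHF and within sham.

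The 4 libraries held 18548351 to 25863685 unique gene reads, and at least 91.8% of gene reads were unique in each. Levels are given as CPM, the read count scaled to library depth over the tested genes with TMM factors, always in the CHF library and then in the sham library of a region. Because the counts include intronic reads and the annotated lengths are those of whole loci, levels were compared only within a gene. A gene passed the test when its adjusted p in edgeR's quasi-likelihood test with Benjamini-Hochberg adjustment over all 12077 genes was at most 0.05. Log2 ratios are hippocampus over prefrontal cortex, ± standard error. For a single gene, an unpaired permutation test of 2 libraries against 2 cannot give a p below 0.333. With 1 residual degree of freedom, the p-values rest on a spread that was shared over genes. With the operation as a block, this spread is only how far the regional ratio differs between the CHF pools and the sham pools. It does not include the difference between CHF and sham pools common to both regions, and it does not measure the spread between mice.

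Altogether 4351 genes (36.0%) passed. Of the 12077 genes, 2093 (17.3%) were higher in the hippocampus and 2258 (18.7%) were lower. At least 2-fold differences were found for 318 genes (2.63%) that were higher and 343 (2.84%) that were lower in the hippocampus. The upper end reached further than the lower end. A log2 ratio of at least 4 was seen for 18 genes that were higher and for 1 gene that was lower. The median log2 ratio of all genes was 0.00. Of the 661 genes with 2-fold differences, 190 stayed under 100 reads in both libraries of the lower region and entered the test only through the higher region. Under a minimum of 100 reads in all 4 libraries, which leaves these genes out, 185 genes were at least 2-fold higher and 237 at least 2-fold lower.

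Each gene was also read within the CHF pair and within the sham pair. All 661 genes with 2-fold differences had the same sign in both, and 550 of them exceeded 2-fold in each pair, which is a description, since these genes were called on the same 4 libraries. Of all genes tested, 2883 (23.9%) had opposite signs. The median gap between the log2 ratios of the pairs was 0.18 for the 661 genes with 2-fold differences and 0.14 for all genes tested. Across the 12077 genes, Pearson's r between the log2 ratios of the pairs was 0.89. This is a description across genes, which are not independent replicates. The pairs share no library.

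**Figure D1:**
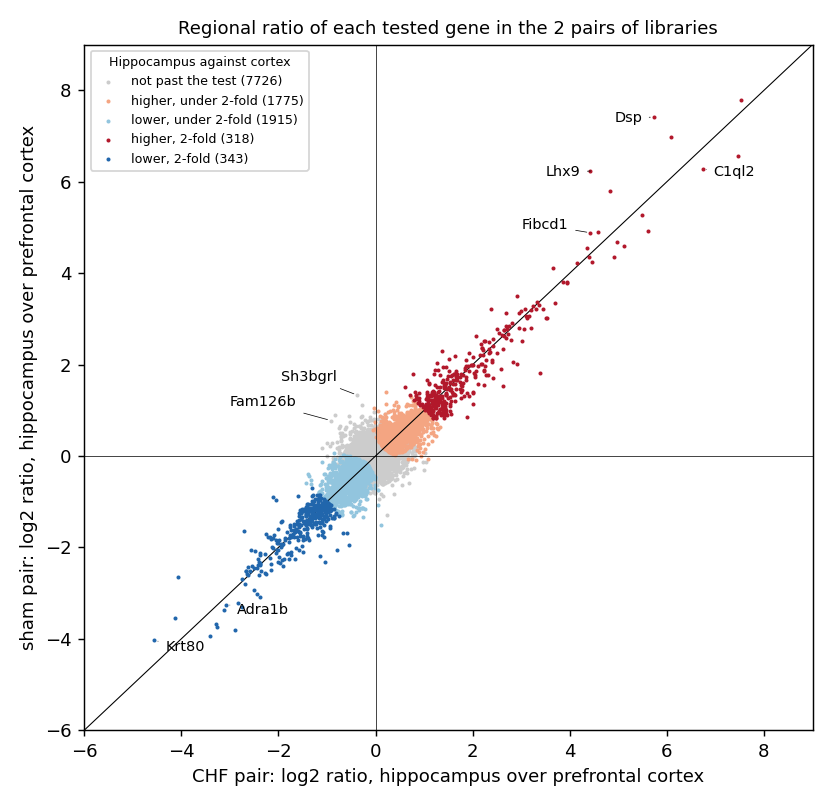
Log2 ratio of hippocampus over prefrontal cortex of each of the 12077 tested genes in the CHF pair (horizontal axis) and in the sham pair (vertical axis), colored by the result of the edgeR test, with the diagonal of equal ratios. The 318 genes that were at least 2-fold higher and the 343 that were at least 2-fold lower lie along the diagonal, while Sh3bgrl and Fam126b have opposite signs in the pairs.

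The largest ratios towards the hippocampus belonged to genes that were close to absent from the prefrontal cortex. C1ql2, a C1q-like protein secreted at synapses of granule cell axons (chr1:120340582-120343174), reached 131 and 116 CPM in the hippocampus and 1.20 and 1.47 CPM in the prefrontal cortex. Its ratio was 90.7-fold (6.50 ± 0.13, adjusted p = 2.62e-24). Dsp, which encodes the junctional protein desmoplakin, was at 33.01 and 34.3 CPM in the hippocampus and 0.599 and 0.178 CPM in the prefrontal cortex (6.49 ± 0.23, adjusted p = 6.22e-19). The libraries of the regions were far apart for both genes, and the libraries within a region differed most where counts were lowest.

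The LIM homeodomain transcription factor Lhx9 (chr1:138825186-138847579) stood at 9.83 and 11.7 CPM in the hippocampus and at 0.436 and 0.134 CPM in the prefrontal cortex. The latter values came from 8 and 3 reads, and the log2 ratio had a counting interval of 3.50 to 5.72 in the CHF pair and 4.89 to 8.74 in the sham pair (exact Clopper-Pearson, 95%, counting error only). Pla2g2f, a secreted phospholipase A2, had 231 and 190 reads in the hippocampus and 2 and 1 reads in the prefrontal cortex, and the counting intervals of its log2 ratio were 4.49 to 9.41 and 5.07 to 12.88. No read of Zcchc5, a retrotransposon-derived gene on the X chromosome, was found in the prefrontal cortex, against 4.10 and 4.94 CPM in the hippocampus. With a floor of 3 reads in each cortical library, the Zcchc5 ratio was 25.1-fold or more, counting error of the hippocampal reads not included. The counting interval of its log2 ratio began at 4.33 in the CHF pair and at 4.88 in the sham pair. Zcchc5 no longer passed in DESeq2 (adjusted p = 0.108).

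Ttr, Slc9a4, Krt2, Lrrc10b, Lct and Iyd were also among the 12 protein-coding genes with the largest ratios towards the hippocampus. Lct, the gene of the intestinal disaccharidase lactase, was measured at 92.2 and 84.1 CPM in the hippocampus and 3.81 and 2.81 CPM in the prefrontal cortex (26.8-fold, adjusted p = 3e-22). Lrrc10b reached 80.97 and 79.96 CPM against 2.56 and 3.08 CPM (28.3-fold). The sodium-proton exchanger Slc9a4, the keratin Krt2 and the iodotyrosine deiodinase Iyd had log2 ratios of 5.38, 4.87 and 4.70. Their cortical values came from few reads, 7 and 5 for Slc9a4, 4 and 8 for Krt2 and 3 and 5 for Iyd. For Iyd, the counting interval of the log2 ratio was 3.51 to 7.38 in the CHF pair and 3.22 to 6.13 in the sham pair. The regions did not overlap in these 12 genes, nor in 8238 (68.2%) of all genes tested.

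At the other end, genes with the largest ratios towards the prefrontal cortex were detected in both regions. Krt80, a type II keratin, was at 0.697 and 1.07 CPM in the hippocampus and 16.9 and 17.8 CPM in the prefrontal cortex, 19.8-fold lower in the hippocampus (-4.31 ± 0.22, adjusted p = 2.21e-15). Igfn1, which encodes a protein with immunoglobulin and fibronectin domains, was at 3.17 and 5.30 CPM against 56.2 and 62.1 CPM (14.2-fold lower). Adra1b, the alpha-1B adrenergic receptor (chr11:43774606-43836332), was also among the 12 genes with the largest ratios in this direction. Its level was 8.01 and 7.25 CPM in the hippocampus and 67.7 and 69.3 CPM in the prefrontal cortex (8.96-fold lower, -3.16 ± 0.11, adjusted p = 1.82e-19).

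Also among these 12 genes were Adam33, Dkkl1, Ccdc27, Cd6, Rasgef1c, Dtl, Opn3 and Ovol2, with log2 ratios between -3.49 and -2.73. For Opn3, which overlaps Chml, 78.5% of reads were unique, and with all gene reads its log2 ratio was -2.30.

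**Figure D2:**
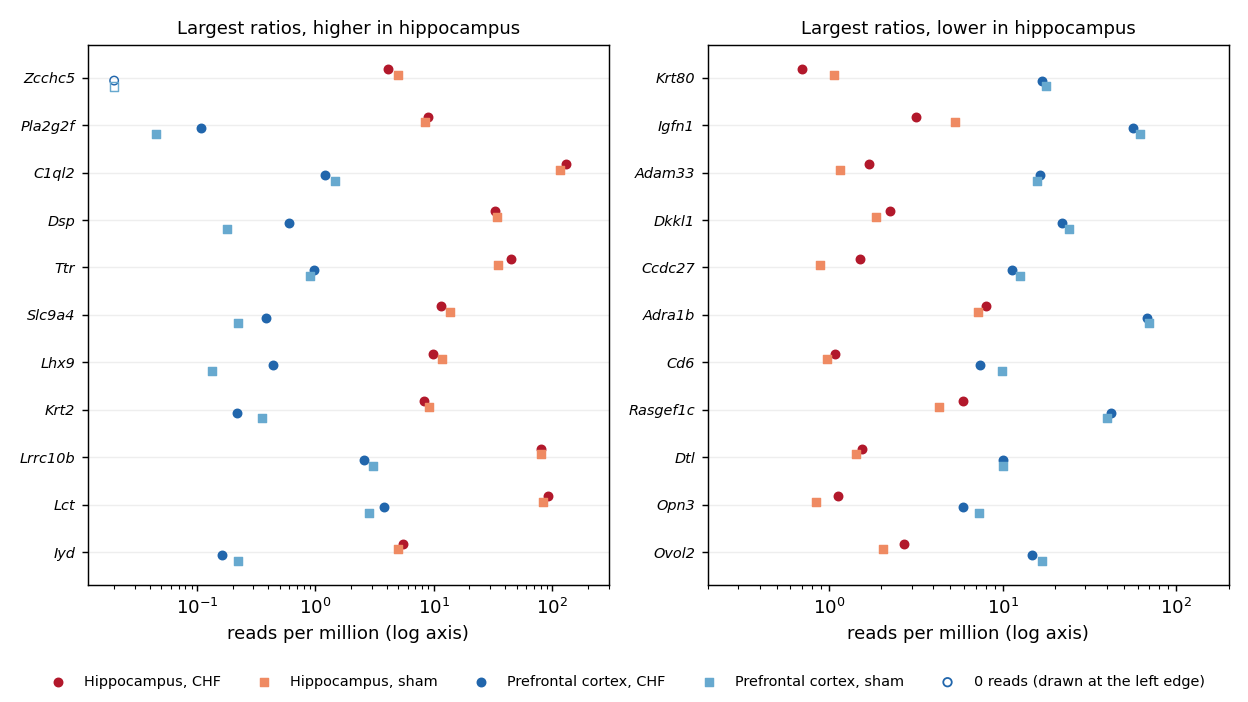
CPM (log axis) in the 4 libraries for 11 of the 12 protein-coding genes with the largest ratios in each direction, circles for CHF pools and squares for sham pools; open symbols at the left edge stand for 0 reads. Hippocampal (red) and cortical (blue) libraries are separated for every gene, from Zcchc5 with 0 reads in cortex to Adra1b with 8.01 and 7.25 CPM in hippocampus and 67.7 and 69.3 CPM in cortex.

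Lists of known marker genes were then examined. Bulk RNA does not tell fewer cells of a type from less RNA per cell. The lists are described by counts and medians, beside the 17.3% of all genes that passed as higher and the 18.7% that passed as lower, and the median ratio of 0.00. A list member that is abundant in 1 region only could pass the read minimum through that region. Otx2, Tcf7l2, Gbx2, Six3, Isl1, Gapdh and Nr4a1 were chosen for mention after their values were seen.

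Of 18 dentate gyrus granule cell markers, 17 were measured, 11 were higher and 2 lower in the hippocampus, 10 of the 11 by at least 2-fold. The median log2 ratio of the list was 1.33. With 100 reads in all 4 libraries, which leaves out genes that are low in the prefrontal cortex, 1 dentate gyrus marker was higher. Besides C1ql2, Dsp and Lct, the 11 higher markers included Il16, a cytokine precursor with neuronal forms. Il16 was at 70.4 and 73.5 CPM in the hippocampus and 4.57 and 5.22 CPM in the prefrontal cortex (3.87). Prox1, the homeodomain factor that maintains granule cell identity, was at 41.3 and 40.004 CPM against 4.90 and 5.80 CPM (2.92 ± 0.13, adjusted p = 6.5e-17). C1ql3 and Pdzd2 went the other way, at -0.48 and -0.73. For C1ql3, 53.5% of reads were unique, and the ratio with all gene reads was -0.41.

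All 9 CA1 markers were measured, and 8 were higher, 6 of them by at least 2-fold, with a median of 1.66. With 100 reads in all 4 libraries, 4 were higher, and without the sham hippocampus library 1 was lower. Fibcd1, a receptor for acetylated structures, was the strongest at 279.9 and 338 CPM against 13.01 and 11.4 CPM (25.3-fold, adjusted p = 5.2e-24). The serine protease inhibitor gene Spink8 was at 12.1 and 13.04 CPM against 1.20 and 1.38 CPM, and Gpr161, a receptor of the primary cilium, at 31.97 and 25.9 CPM against 3.92 and 4.51 CPM. Zbtb20, a zinc finger repressor required for CA1 fate, had 8.21 and 6.01 CPM against 0.762 and 1.70 CPM (2.48), and its locus spans 3 other annotated features. Mpped1, the CA1 marker with the most reads, was at 442 and 489 CPM against 521 and 502 CPM and did not pass (adjusted p = 0.16).

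Among 11 CA3 markers, 6 were higher and 2 lower, with a median of 0.62. Iyd and the bHLH factor Neurod6 (163 and 167 CPM against 71.1 and 72.2 CPM) were higher, as was Grik4, the kainate receptor subunit KA1 (1.03). Coch, which encodes the extracellular protein cochlin, was lower at 2.98 and 3.11 CPM against 18.8 and 18.9 CPM (-2.63). Of 8 CA2 markers, 6 were measured. The other 2, chosen for mention after their values were seen, were also more abundant in the hippocampus, with Sostdc1 at 3.95 and 3.60 CPM against 0.653 and 0.535 CPM and the vasopressin receptor gene Avpr1b at 0.968 and 0.890 CPM against 0 reads. With a minimum of 10 reads or with no filter, 5 CA2 markers were higher. Amigo2, Rgs14 and Cacng5 were higher (log2 ratios 1.51, 1.26 and 1.15), while Pcp4 and Ptpn5 were lower (-0.83 and -0.49). Pcp4 is also a marker of layer 5 neurons, and Sostdc1 is also on the list of choroid plexus markers, described below.

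The list of hippocampal transcription factors held 15 genes, of which 8 were higher and 2 lower. Beyond Lhx9 and Zbtb20, the mineralocorticoid receptor Nr3c2 was at 137 and 137 CPM against 26.7 and 28.02 CPM (5.00-fold, adjusted p = 5.23e-19). Bcl11b, a zinc finger factor of CA neurons, granule cells and of layer 5 projection neurons, was higher (1.03). The homeodomain factor Meis2 was lower in the hippocampus, at 37.9 and 40.4 CPM against 96.97 and 101 CPM (-1.34).

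Neocortical layer markers showed the reverse arrangement in the upper layers and in layer 6. Of 15 upper layer markers, 11 were lower in the hippocampus, 7 of them by at least 2-fold, and 2 were higher, and the median was -0.91. Cux2, a homeodomain factor of layers 2 to 4, was at 53.9 and 51.04 CPM in the hippocampus and 204 and 196 CPM in the prefrontal cortex (3.80-fold lower, adjusted p = 4.15e-18). The dendritic lysosomal membrane protein Lamp5 was at 45.2 and 41.6 CPM against 255 and 227 CPM, and Rspo1, a secreted activator of Wnt signaling, at 1.82 and 1.87 CPM against 11.3 and 10.2 CPM. The exceptions were the adhesion molecule Mdga1 (218 and 186 CPM against 34.7 and 30.2 CPM) and the sodium channel subunit Scnn1a (14.6 and 13.2 CPM against 3.05 and 2.28 CPM), which were higher in the hippocampus.

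Of 15 layer 6 and subplate markers, 12 were measured, of which 8 were lower, 7 by at least 2-fold, and 3 were higher, with a median of -1.15. The T-box factor Tbr1 (chr2:61804453-61814114) was at 92.3 and 89.8 CPM against 251 and 239 CPM (2.69-fold lower, adjusted p = 1.48e-15). Sulf1, an extracellular sulfatase, was at 3.41 and 3.25 CPM against 15.2 and 16.9 CPM. Nr4a2, a nuclear receptor that also counts among the immediate early genes, was higher in the hippocampus at 66.995 and 57.1 CPM against 13.2 and 11.2 CPM (2.35). Sla was listed at 0 in all 4 libraries. Here and for other genes, a listing at 0 in all 4 libraries does not by itself show that the RNA was absent.

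Layer 5 markers did not move in a common direction. Of 14 measured, 7 were higher and 6 lower, and the median was 0.23. Crym, a thyroid hormone binding protein, was higher at 244 and 284 CPM against 91.4 and 98.2 CPM (1.48), as was Bcl11b. Deptor, an inhibitor of mTOR, and Rbp4, a retinol carrier, were lower (-1.95 and -1.03). Fezf2, the determinant of subcerebral projection neurons, was at 63.3 and 64.4 CPM against 69.3 and 82.7 CPM (-0.25, adjusted p = 0.0186), and did not pass in DESeq2 (adjusted p = 0.228).

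The sequences before the transcription starts of 2 granule cell genes that were higher in the hippocampus and of 2 cortical layer genes that were lower are shown to place the regional genes in their sequence context. They are 250 bases long, read 5′ to 3′ on the strand of the gene and come from RefSeq (GRCm38.p6). For Prox1, the start listed first was used. Capitals mark the E-box letters CANNTG, a core bound by bHLH factors, and the letters TAATTA, a core bound by homeodomain factors. Both read the same on either strand, and no capitals overlap. The genes are C1ql2 (chr1:120340332-120340581, plus strand), Prox1 (chr1:190170828-190171077, minus strand), Tbr1 (chr2:61804203-61804452, plus strand) and Rspo1 (chr4:124986180-124986429, plus strand).
C1ql2: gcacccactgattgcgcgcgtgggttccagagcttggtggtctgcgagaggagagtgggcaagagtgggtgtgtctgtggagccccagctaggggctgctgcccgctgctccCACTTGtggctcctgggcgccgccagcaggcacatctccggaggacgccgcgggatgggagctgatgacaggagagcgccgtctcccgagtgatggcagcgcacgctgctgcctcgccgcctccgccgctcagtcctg
Prox1: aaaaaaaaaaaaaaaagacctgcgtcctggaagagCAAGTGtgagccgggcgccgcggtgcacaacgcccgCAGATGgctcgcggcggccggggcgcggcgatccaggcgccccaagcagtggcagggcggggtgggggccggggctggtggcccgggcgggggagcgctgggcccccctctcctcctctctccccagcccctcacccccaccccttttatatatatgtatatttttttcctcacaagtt
Tbr1: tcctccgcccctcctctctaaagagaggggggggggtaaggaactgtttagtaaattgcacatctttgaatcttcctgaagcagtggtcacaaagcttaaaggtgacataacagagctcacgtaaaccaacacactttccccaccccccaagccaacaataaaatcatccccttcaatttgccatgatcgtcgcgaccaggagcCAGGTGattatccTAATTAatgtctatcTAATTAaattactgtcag
Rspo1: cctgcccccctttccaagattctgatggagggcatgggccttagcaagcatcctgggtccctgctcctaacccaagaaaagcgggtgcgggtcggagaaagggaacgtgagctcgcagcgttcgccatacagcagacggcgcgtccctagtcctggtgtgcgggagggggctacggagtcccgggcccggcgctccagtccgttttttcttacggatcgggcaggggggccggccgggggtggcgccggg
C1ql2 held 1 E-box, Prox1 held 2, Tbr1 held 1 and Rspo1 held 0. Tbr1 alone of these 4 held TAATTA, in 2 copies. Over the 27025 promoter sequences of this length in the table, 66.0% held an E-box and 4.9% held TAATTA. The table covered 76.6% of the tested genes, and no comparison of promoters between directions was made. The matches are descriptions of these windows.

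General markers of neuron classes did not move in a common direction. Of 12 markers shared by glutamatergic neurons, 5 were higher and 4 lower, with a median of 0.05, and without the CHF cortex library 3 were higher. Camk2a, the alpha subunit of calcium/calmodulin kinase II and the one with the most reads, was at 8122 and 8342 CPM against 6719.6 and 6514 CPM (0.32, adjusted p = 0.019), and without either cortical library it did not pass in edgeR (adjusted p = 0.0622 and 0.116). Among 21 measured interneuron markers, 4 were higher, 5 were lower and 12 did not pass. The peptides Vip (4.88 and 5.34 CPM against 19.8 and 16.1 CPM) and Tac2 (-1.32) and the calcium binding protein Pvalb (-0.58) were lower in the hippocampus. Calb2, the gene of calretinin (35.5 and 30.3 CPM against 10.6 and 11.02 CPM), and Nos1, the neuronal nitric oxide synthase (1.28), were higher.

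Genes of adult neurogenesis, which in the hippocampus takes place in the dentate gyrus, went in both directions, with 5 higher and 5 lower of 11 measured. With no filter or a minimum of 10 reads 8 were higher, with 100 reads in all 4 libraries 2 were higher, and in DESeq2 or without the sham cortex library 3 were lower. Prox1 was among those that were higher. Dcx, which encodes the microtubule binding protein doublecortin of migrating neuroblasts, was lower at 3.72 and 2.89 CPM against 7.95 and 9.06 CPM (-1.36). Stmn1 was lower too (-1.34), with 51.9% of its reads unique and a ratio of -1.34 with all gene reads.

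**Figure D3:**
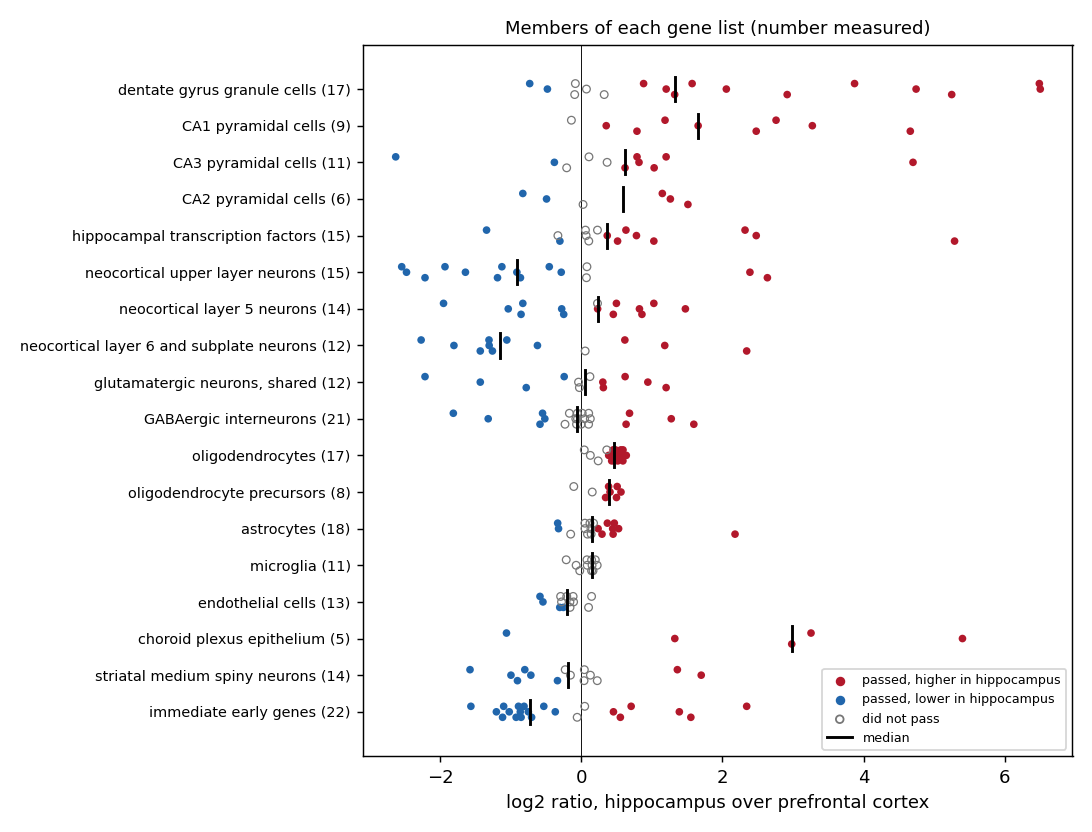
Log2 ratio of hippocampus over prefrontal cortex of the measured members of 18 of the gene lists, filled where the member passed the edgeR test and open where it did not, with the median of each list as a bar. Dentate gyrus and CA1 markers have medians of 1.33 and 1.66, upper layer and layer 6 markers medians of -0.91 and -1.15, and microglia markers hold no member that passed.

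Glial and vascular markers were examined in the same way. Myelin genes were modestly higher in the hippocampus. Of 17 measured oligodendrocyte markers, 13 were higher, with log2 ratios of up to 0.64 (Fa2h), and 0 were lower. Without the sham hippocampus library, 1 was lower. Mbp, the myelin basic protein gene, was at 2576 and 2914 CPM against 1717 and 1925 CPM (0.59, adjusted p = 2.88e-06). Summed over the list, the hippocampal libraries held 4082 and 4563 CPM and the cortical libraries 2780 and 3140 CPM. Of 8 measured markers of oligodendrocyte precursors, 6 were higher in edgeR and 1 in DESeq2.

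Among 18 astrocyte markers, 8 were higher and 2 lower, and only Gfap passed with a 2-fold difference. In DESeq2 and without the CHF cortex library 0 were lower, and without the sham cortex library 5 were higher. Gfap, the intermediate filament of astrocytes, was at 468 and 466 CPM against 105 and 101 CPM (4.53-fold, adjusted p = 1.8e-19). Of 11 measured microglia markers, 0 passed in edgeR or in DESeq2, while 2 had an unadjusted p under 0.05 in edgeR and 0 in DESeq2, and their median was 0.15. Without the sham hippocampus library, 1 microglia marker was higher. P2ry12, P2ry13 and Gpr34 were listed at 0 in all libraries, which does not by itself show that their RNA was absent. Of 13 endothelial markers, 4 were lower, among them Tek and Flt1 (-0.58 and -0.25). In DESeq2 0 passed, and 1 had an unadjusted p under 0.05, against 6 in edgeR.

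Markers of tissues that border the dissected regions were also measured. Ttr, which encodes the thyroxine carrier of the choroid plexus, was at 45.1 and 35.1 CPM in the hippocampus and 0.980 and 0.892 CPM in the prefrontal cortex. Kl, the gene of the coreceptor klotho, was at 36.6 and 34.8 CPM against 3.97 and 5.00 CPM, and the chloride channel Clic6 at 5.81 and 5.92 CPM against 0.490 and 0.714 CPM. Of 17 choroid plexus markers, 5 were measured, 11 were under the read minimum and 1, Kcnj13, was listed at 0. Of the 5 measured, 4 were higher and 1 lower. With 100 reads in all 4 libraries, which leaves out genes that are low in the prefrontal cortex, 0 were higher. With a minimum of 10 reads 9 were higher, and with no filter 11. Of the 11 under the minimum, 9 had more CPM in both hippocampal than in both cortical libraries. Over the tested genes, the regions did not overlap in 8238 (68.2%), with either region higher. How often this held over all features under the minimum was not counted. Otx2, a homeodomain factor that defines this epithelium, was at 0.929 and 0.667 CPM in the hippocampus and at 0 in both cortical libraries. The summed level of the list was 135.8 and 122.7 CPM in the hippocampus and 78.7 and 80.8 CPM in the prefrontal cortex, of which Enpp2 alone made up 68.7 and 69.3 CPM in the cortex. The part of choroid plexus tissue in the ratios of Ttr, Kl and Clic6 was not tested.

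Foxj1, a regulator of motile cilia in ependymal cells, was the single measured ependymal marker and was higher in the hippocampus (9.40 and 14.1 CPM against 5.72 and 5.58 CPM). The other 9 were under the minimum, and 8 of these had more CPM in both hippocampal libraries, again without a count over all features under the minimum. Of 13 measured thalamic markers, 5 were higher and 5 lower, and 2 were lower in DESeq2. Lhx9, Calb2, Prkcd and Ntng1, which are on this list, were at least 2-fold higher in the hippocampus, and Ramp3 was at least 2-fold lower (-1.63). The summed level of thalamic markers was 236 and 201 CPM in the hippocampus and 168.8 and 179.5 CPM in the prefrontal cortex. The median log2 ratio of the 13 measured members was 0.58 in the CHF pair and -0.004 in the sham pair. The gene of the thalamic factor Tcf7l2 was at 11.7 and 6.72 CPM against 7.57 and 6.74 CPM and did not pass with all 4 libraries (0.713 without the sham hippocampus library, adjusted p = 0.00313 in edgeR), and Gbx2 was at 0.62 and 0.13 CPM against 0.05 and 0.13 CPM. Without the CHF hippocampus library, in which Tcf7l2 and Gbx2 were highest, Lhx9 was at a log2 ratio of 5.41, Calb2 at 1.48, Prkcd at 1.39 and Ntng1 at 1.12. The part of thalamic tissue in the ratios of these genes was not tested in either hippocampal library.

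Of 14 measured markers of striatal medium spiny neurons, 6 were lower and 2 higher in the hippocampus. The dopamine receptor Drd1 was at 5.57 and 4.36 CPM against 9.86 and 9.86 CPM (-0.99). Gng7, a G protein subunit, was higher at 391 and 406 CPM against 158 and 152 CPM (1.36). The striatal lineage factors Six3 and Isl1 were at most 0.44 CPM in any library. Olfactory bulb markers were measured for 6 of 12 genes, with 3 higher and 1 lower, and with no filter or a minimum of 10 reads 4 were lower. Of 14 measured meningeal fibroblast markers, 1 was higher and 4 lower, and 7 were lower without the CHF hippocampus library. In DESeq2, with region alone in the model, without the sham hippocampus library and without the CHF cortex library 2 were lower, and without the sham hippocampus library 4 were higher. Of 10 pericyte and smooth muscle markers, 2 were higher and 2 lower in edgeR. In DESeq2 0 passed, and 2 had an unadjusted p under 0.05, against 6 in edgeR.

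Receptors for serotonin differed by subtype. Of 14 genes, 9 were measured, 5 were higher and 2 lower in the hippocampus. The largest ratios were those of Htr5b, at 9.13 and 8.54 CPM against 0.871 and 0.848 CPM (10.2-fold, adjusted p = 4.41e-12), and of Htr4, a receptor coupled to stimulation of adenylyl cyclase, at 7.66 and 9.12 CPM against 0.817 and 0.982 CPM (9.28-fold, adjusted p = 1.02e-11). Htr1a, the inhibitory 5-HT1A receptor and the member of the family with the most reads, was at 77.6 and 64.5 CPM against 36.5 and 36.9 CPM (1.93-fold). Htr2c and the channel subunit Htr3a were higher as well (0.86 and 0.64). Htr2a, the 5-HT2A receptor, was lower in the hippocampus, at 1.78 and 1.69 CPM against 7.46 and 6.07 CPM (3.88-fold, adjusted p = 2.55e-08), and so was Htr5a (-0.67). With 100 reads in all 4 libraries, 3 were higher and 1 lower.

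Adrenergic and dopamine receptors split in the same manner, with 4 higher and 4 lower of 8 measured. Adra1b and Adra1a (5.42 and 4.32 CPM against 10.5 and 12.9 CPM) and the beta-1 receptor Adrb1 (-0.88) were lower, while the third alpha-1 receptor gene, Adra1d, was higher at 124 and 131 CPM against 92.6 and 105 CPM (0.37). The dopamine receptor Drd5 was at 27.8 and 30.7 CPM against 7.62 and 7.85 CPM (3.78-fold higher, adjusted p = 6.04e-13), opposite to Drd1. Of 6 measured acetylcholine receptors, 3 were higher and 3 lower, and with no filter or a minimum of 10 reads 6 were higher. The nicotinic subunit Chrna7 was higher and Chrna4 lower (0.92 and -0.90). The muscarinic receptor Chrm1 was at 445 and 488 CPM against 363 and 340.3 CPM (0.41) and Chrm4 at 40.9 and 44.3 CPM against 64.6 and 78.9 CPM (-0.75).

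GABA-A receptor subunits, which form the main inhibitory ion channel, also went in opposite directions. Of 11 measured, 3 were higher and 5 lower in edgeR, and 1 was higher and 2 lower in DESeq2. Gabra5, a subunit of extrasynaptic channels, was at 75.8 and 78.1 CPM against 25.05 and 31.1 CPM (2.75-fold higher, adjusted p = 1.27e-13). Only 53.0% of its reads were unique, and with all gene reads its log2 ratio was 1.64. Gabra3 was at 17.9 and 20.8 CPM against 55.3 and 56.2 CPM (2.88-fold lower) and Gabrd, the subunit of tonic inhibition, at 41.4 and 38.9 CPM against 90.3 and 85.99 CPM (2.19-fold lower).

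Of 17 measured ionotropic glutamate receptor genes, 6 were higher and 5 lower, and in DESeq2 3 each. Gria1, a subunit of AMPA receptors and the member of the list with the most reads, was at 1109 and 1108 CPM in both hippocampal libraries and 405 and 432 CPM in the cortical libraries (2.65-fold, adjusted p = 9.72e-15). The AMPA subunits Gria3 and Gria4 were lower (-0.74 and -0.99). Among kainate receptors, Grik4 was higher and Grik3 lower, at 121 and 116 CPM against 263 and 274 CPM (2.27-fold, adjusted p = 1e-13). The NMDA receptor subunit Grin2a was higher (0.63). Of 7 metabotropic receptors, 2 were higher (1 in DESeq2) and 3 lower, with the largest ratio for Grm8 at 4.76 and 3.96 CPM against 16.01 and 17.8 CPM (-1.95).

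**Figure D4:**
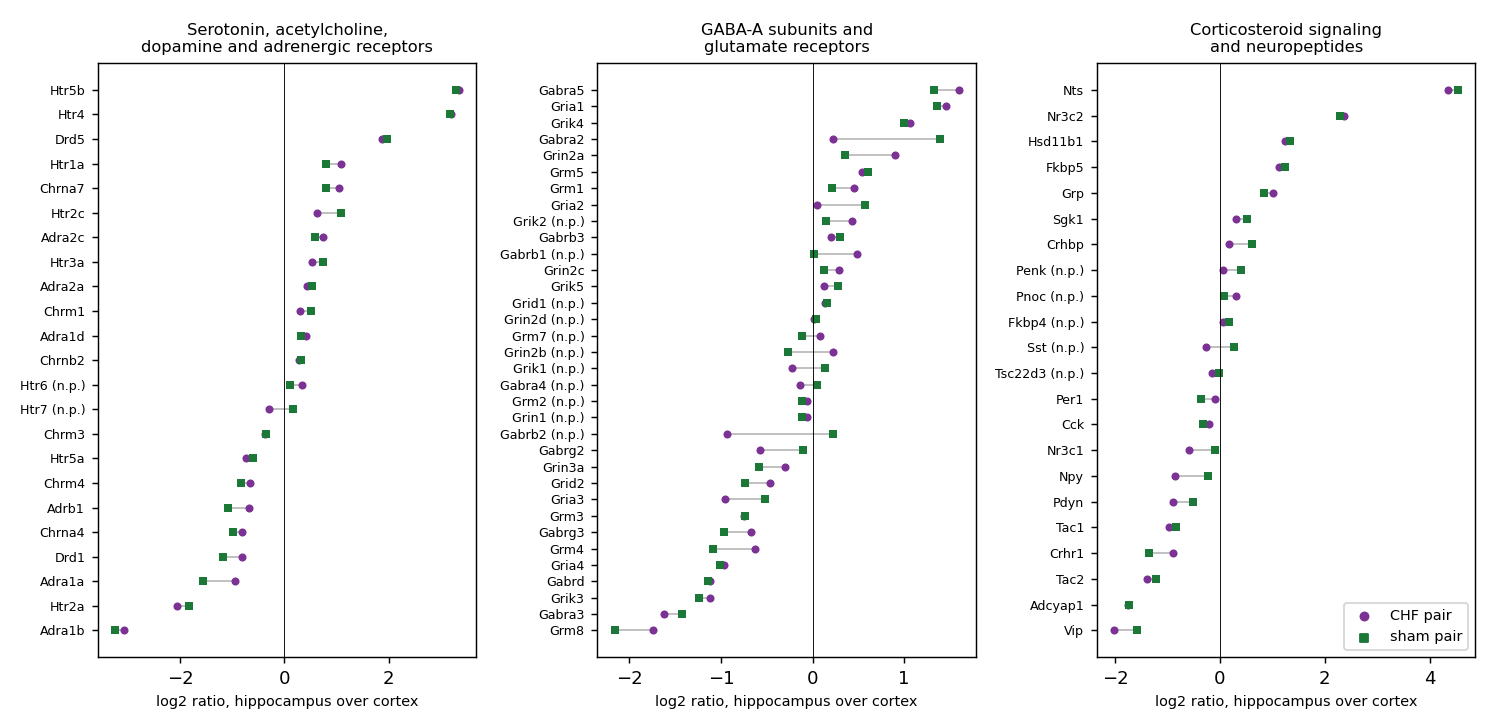
Log2 ratio of hippocampus over prefrontal cortex in the CHF pair (circles) and the sham pair (squares) for most of the measured receptors, corticosteroid signaling genes and neuropeptides, with "n.p." after genes that did not pass the edgeR test. Both pairs lie far to the right for Htr5b, Htr4, Nr3c2 and Nts and to the left for Adra1b, Htr2a, Grm8 and Vip, while the pairs of Gabrb2 fall on opposite sides of 0.

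Corticosteroid signaling differed between the regions in its receptors. Nr3c2 is the high affinity receptor for corticosterone and is known for its abundance in the hippocampus. In contrast to Nr3c2, the glucocorticoid receptor Nr3c1 was at 14.4 and 20.96 CPM against 21.7 and 22.3 CPM (-0.33, adjusted p = 0.0398), with ratios of -0.59 in the CHF pair and -0.09 in the sham pair, and did not pass in DESeq2 (adjusted p = 0.361). Without the CHF hippocampus library its log2 ratio was -0.071. Hsd11b1, which regenerates active corticosterone, was at 32.3 and 34.3 CPM against 13.6 and 13.7 CPM (2.44-fold higher, adjusted p = 1.85e-10). Fkbp5, a glucocorticoid-induced cochaperone of the receptor, was at 86.9 and 75.6 CPM against 39.96 and 32.1 CPM (2.26-fold higher). Crhr1, the receptor for corticotropin-releasing hormone, was lower at 30.8 and 25.4 CPM against 57.1 and 64.8 CPM (2.17-fold). In total 5 of 10 measured genes were higher and 3 lower, and without the sham cortex library 3 were higher and 1 lower.

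Of 12 measured neuropeptide genes, 2 were higher and 7 lower in the hippocampus. With 100 reads in all 4 libraries, 1 was higher. Nts, the precursor of neurotensin, was at 4.88 and 4.67 CPM against 0.218 and 0.178 CPM (4.56, adjusted p = 2.11e-11). Its cortical values came from 4 reads in each library. The counting intervals of its log2 ratio were 3.09 to 6.38 in the CHF pair and 3.31 to 6.61 in the sham pair. Grp, the gastrin-releasing peptide gene, was higher as well (0.92). Lower were Vip and Adcyap1, the related precursor of PACAP, at 6.00 and 5.21 CPM against 20.3 and 17.3 CPM (3.35-fold). Cck, the member with the most reads, was at 268 and 248 CPM against 312 and 311 CPM (-0.27, adjusted p = 0.00307).

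Immediate early genes, whose transcription follows neuronal activity, were mostly lower in the hippocampus. Of 22 genes, all were measured, 14 were lower, 6 were higher and the median was -0.72. Egr1 was at 187 and 200.2 CPM against 435 and 453 CPM (2.30-fold lower, adjusted p = 4.93e-14). Egr2, Nptx2, Fos and Fosb were at least 2-fold lower too, with log2 ratios of -1.56, -1.11, -1.10 and -1.02. Higher in the hippocampus were Nr4a2, Nr4a3 (44.7 and 47.7 CPM against 12.6 and 19.1 CPM) and Jun (208 and 215 CPM against 76.7 and 84.9 CPM, adjusted p = 4.22e-15). Nr4a1, of the same family as Nr4a2 and Nr4a3, was lower at 98.2 and 106 CPM against 125 and 234 CPM (-0.75), a call that was lost in DESeq2 (adjusted p = 0.197).

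The cortical pools differed from each other for several of these genes. The following 4 were chosen after their values were seen. Arc, whose product acts at the synapse, was at 140.3 and 168 CPM in the hippocampus and 141 and 275 CPM in the prefrontal cortex, with ratios of -0.01 in the CHF pair and -0.71 in the sham pair. Npas4 had ratios of -0.50 and -1.24, Dusp1 of -0.27 and -1.34, and Junb of 0.57 and -0.44. The median log2 ratio of the list was -0.31 in the CHF pair and -0.85 in the sham pair, and this difference between the pairs was not tested. Without the sham cortex library, the log2 ratio of Arc was 0.124, that of Npas4 was -0.376 and neither passed in edgeR (adjusted p = 0.446 and 0.0869). Junb, which did not pass with all 4 libraries, was at 0.525 without the sham cortex library and at -0.392 without the CHF cortex library, and passed in both cases.

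**Figure D5:**
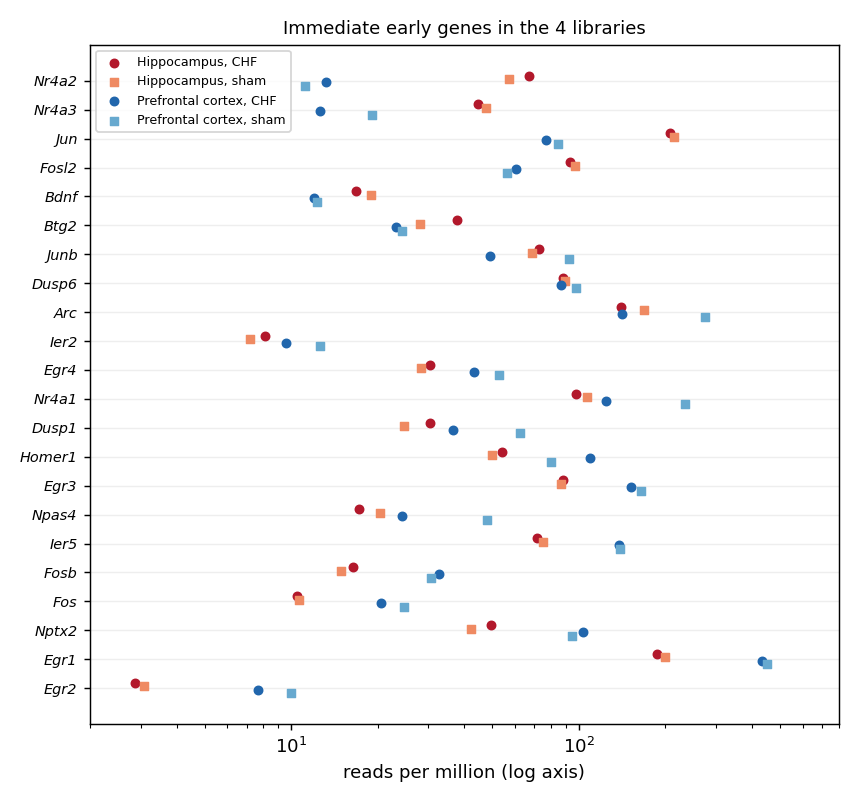
CPM (log axis) of the 22 immediate early genes in the 4 libraries, ordered by their log2 ratio, circles for CHF pools and squares for sham pools. Cortical libraries (blue) lie to the right of hippocampal libraries (red) for most genes below Dusp6, with the sham cortex pool highest for Arc (141 and 275 CPM in the cortex) and Nr4a1 (125 and 234 CPM), and to the left for Nr4a2, Nr4a3 and Jun.

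Cell surface molecules that guide axons and hold layers and nuclei together differed in both directions. Of 18 measured Eph receptors and ephrins, 8 were higher and 7 lower, and 5 were higher in DESeq2. Epha6 was at 30.9 and 22.8 CPM against 7.62 and 8.61 CPM (1.70) and Efnb3 at 314 and 332 CPM against 125 and 145 CPM (1.26, adjusted p = 2.35e-14). The ligand Efna5 (8.82 and 11.1 CPM against 39.1 and 39.04 CPM, 3.94-fold lower) and the kinase-inactive receptor Ephb6 (153 and 170.5 CPM against 377 and 403 CPM) were lower. Of 12 measured cadherins, 2 were higher (1 in DESeq2) and 5 lower, with Cdh9 at 1.09 and Cdh22 at -1.35. Cdh9 did not pass in DESeq2 (adjusted p = 0.0555).

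Genes commonly used as references were also measured. Of 13 measured, 3 were higher and 3 lower (1 lower in DESeq2 and 1 higher without the sham cortex library), and none reached 2-fold. Sdha, a subunit of succinate dehydrogenase, had a log2 ratio of -0.54. Gapdh was at 17.9 and 23.3 CPM against 18.8 and 21.3 CPM (0.03, adjusted p = 0.861). These levels count unique reads only, and the unique share differed widely within the list. It was 6.65% for Pgk1, 47.01% for Rplp0 and 99.86% for Sdha, and that of Gapdh is not given here. B2m was listed at 0 in all 4 libraries.

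Of the 4351 genes that passed, 16 had opposite signs in the CHF and sham pairs, against 2883 (23.9%) of all genes tested. The low count is a description, since genes passed on these same 4 libraries and the test favors ratios that agree between the pairs. Among genes with at least 100 reads in every library, 38 had ratios that lay at least 1 apart on the log2 scale. In the 10 with the widest gaps, the ratio was the lower one in the CHF pair. In 9 of the 10, the CHF hippocampus library was the lowest of the 4, and in 8 the sham hippocampus library was the highest. These genes were picked for their gaps, and how often such orders held over all genes was not counted. Sh3bgrl was at 9.10 and 21.7 CPM in the hippocampus and 11.8 and 8.61 CPM in the prefrontal cortex. The deiodinase gene Dio2 was at 7.01 and 15.1 CPM and 15.03 and 13.3 CPM, with a counting interval of the log2 ratio of -1.38 to -0.82 in the CHF pair and -0.05 to 0.41 in the sham pair. None of these 10 genes passed the test of the region, and 68 of the 100 widest gaps had the lower ratio in the CHF pair. The share of all genes with the lower ratio in the CHF pair was not counted. Over all genes tested, the median of the signed gap (CHF pair minus sham pair) was 0.004.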

How the data were processed

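RNA of hippocampus and prefrontal cortex was depleted of ribosomal RNA, sequenced as strand-specific single reads and mapped by the authors with CLC Genomics Workbench (version not given in the sources used here) to GRCm38.p1. Whether counting used strand is not given there either. The deposited tables hold counts of reads per feature (unique gene, total gene and exon reads) and RPKM, which the authors derived from exon reads (recomputed here from the exon reads, the listed length and the total gene reads for all 141940 values). Unique gene reads include introns. Features with 100 or more unique gene reads in at least 2 of the 4 libraries were fitted with edgeR 4.0.16 in R 4.3.3 (TMM, quasi-likelihood test, operation as a block), after the script was tested on simulated data. DESeq2 1.42.0, limma 3.58.1, other scalings, filters, read classes, GC and length trends and left-out libraries served as alternatives. Ratios of single pairs used 0.5 added reads and have no test. Named genes are the 12 protein-coding genes with the largest ratios in each direction, up to 6 members that passed per list and direction with the list's member of highest CPM, and the 10 genes with the widest gaps between the pairs. The members and the 35 lists were chosen with earlier results of these data known. The authors' tables of their own CHF against sham comparisons and the heart libraries were not used. Some genes that the rule names are not reported here.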

Additional observations from a re-analysis of the deposited data

Results flagged for a closer look

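In 8 named genes the regional ratio had opposite signs in the CHF pair and in the sham pair, with both counting intervals off 0. These differences between the pairs were not tested, since each pair holds 1 library a region, and the intervals cover counting error only. The gap, given as the log2 ratio of the CHF pair minus that of the sham pair, was -1.71 for Sh3bgrl, which had a ratio of -0.38 in the CHF pair and 1.33 in the sham pair. It was -1.69 for Fam126b (-0.92 and 0.78), -1.43 for Zfml (-0.55 and 0.89) and -1.35 for Ipo7 (-0.75 and 0.61). It was -1.24 for Top2b (-0.61 and 0.63), -1.21 for C230091D08Rik (-0.70 and 0.51) and -1.18 for Luzp2 (-0.90 and 0.28). These 7 genes had been named because their gaps were wide. Glul, the glutamine synthetase gene of astrocytes, had a gap of -0.18 (-0.03 and 0.14), small in size but measured with many reads.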

How the results depend on the processing

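DESeq2 called 1101 genes higher and 1246 lower, against 2093 and 2258 in edgeR. Of the 661 genes with 2-fold differences, 650 passed in DESeq2 with the same sign. With no filter, 594 genes were at least 2-fold higher and 642 lower, with a minimum of 10 reads 592 and 664, and with 100 reads in all 4 libraries 185 higher, since these settings change the genes tested. Leaving out 1 library gave 1426 to 1927 genes higher, 1575 to 2091 lower, 316 to 336 at least 2-fold higher and 338 to 375 at least 2-fold lower. The fit with no replicate block called 2068 genes higher and 2208 lower, with 317 and 342 at least 2-fold. Libraries with the same operation did not deviate together, with a correlation of the CHF minus sham deviations between regions of -0.07, and the paired libraries are known to share the operation, while shared animals are not given. Rora, lower in the hippocampus in edgeR, had a log2 ratio of 0.052 within CHF. Arc ranged from -0.834 without the CHF cortex library to 0.124 without the sham cortex library, and Per1 from -0.441 without the CHF cortex library to 0.002 without the sham cortex library (adjusted p = 0.991 in edgeR), and the cause was not tested. Of 244 named genes that passed, 51 lost their call in DESeq2 and 36 without the sham cortex library. Of 1190 list counts under an alternative, 1103 stayed within 1.5 times. Genes with few reads in the lower region are limited by depth.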
